A study of Homo sapiens with 12 samples.

Results

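The genes described here carry the symbols of proteins of the cytoplasmic ribosome or of paralogs such as RPL7L1. A symbol does not show that the product is part of the ribosome. They were chosen by symbol (RPL or RPS with a number, or RPLP0, RPLP1, RPLP2 and RPSA, leaving out RPS27L, pseudogenes and antisense names) and by a minimum of 1000 reads summed over the 12 libraries. The rule took 79 of the 26364 genes in the files, 31 named for the small (40S) and 48 for the large (60S) subunit. The minimum uses read totals over all groups and no contrast between them, but the set was proposed with results of these data in view. Of 83 symbols that matched, 4 were under the minimum: RPL21 with 7 reads, RPL3L with 5, and RPL10L and RPL39L with 0. Just inside it was RPL36A with 4382 reads, followed by RPS10 with 12437, RPL26L1 with 14492 and RPL17 with 16883. RPS27L, left out by name, had 31112 reads. All 79 passed the low-count filter, which kept 12858 genes in all.

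The study sequenced polyadenylated RNA of RKO, an established human colon carcinoma cell line, in 6 groups of 2 libraries. The groups were wild type (WT), the CRISPR/Cas9 knockouts of PRDM1 named KO2 and KO5, and cells that overexpressed PRDM1 alpha, PRDM1 beta or, as a control, GFP. PRDM1 is a zinc finger protein best known as a transcriptional repressor in B cells. The labels do not say what drives the transgenes, whether KO2 and KO5 are single clones, or whether the libraries of a group come from separate cultures, so p-values measure the spread between these libraries, which may be technical. PRDM1 itself had 4 reads in each WT library, 0 and 1 in KO2, 1 and 1 in KO5, and 2 and 6 under GFP; the alpha libraries had 11475 and 9681 reads and the beta libraries 22395 and 28423. At 4 reads in wild type, the RNA does not check the knockout labels. Among epithelial markers KRT8, KRT18 and CDX2 were present, whereas EPCAM was at 0 and KRT19, CDH1, VIL1 and KRT20 had at most 2 reads in any library.

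A ribosome holds 1 copy of nearly every one of these proteins, and their genes are among the most highly transcribed in growing cells. Most of their mRNAs begin with a C followed by a run of pyrimidines, the terminal oligopyrimidine (TOP) tract, through which LARP1 and mTOR signalling adjust their translation and stability. The 40S proteins surround the centre where the mRNA is read, and the 60S proteins the centre where peptide bonds form. RPLP0, RPLP1 and RPLP2 form the stalk that recruits elongation factors, and RPL5 and RPL11 join 5S RNA in a particle that can also bind MDM2, the ligase of p53.

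The start sites of genes on which the results turn are shown first, since the TOP tract is what these mRNAs are best known to share. Each sequence runs from 15 bases before to 15 bases after a RefSeq start (GRCh38.p14, a later build than that of the deposited counts), 5′ to 3′ on the gene's strand. Capitals mark a C followed by at least 4 pyrimidines that begins between 5 bases before and 10 bases after the start; the tract of RPL39 reaches the end of the window.
RPL24, chr3:101686704-101686733, minus strand: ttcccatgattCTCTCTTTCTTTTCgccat
RPL39, chrX:119791616-119791645, minus strand: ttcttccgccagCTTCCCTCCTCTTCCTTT
RPL11, first start, chr1:23691764-23691793, plus strand: cgcctcctggcccataaggCCCTCggccgg
RPL11, second start, chr1:23691791-23691820, plus strand: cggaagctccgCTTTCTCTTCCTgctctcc
RPS14, chr5:150449725-150449754, minus strand: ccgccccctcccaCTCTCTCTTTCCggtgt
RPL13A, chr19:49487593-49487622, plus strand: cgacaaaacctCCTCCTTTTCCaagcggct
RPL28, chr19:55385917-55385946, plus strand: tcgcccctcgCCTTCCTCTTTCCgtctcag
RPLP1, chr15:69452803-69452832, plus strand: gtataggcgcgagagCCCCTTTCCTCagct
RPL22, chr1:6199581-6199610, minus strand: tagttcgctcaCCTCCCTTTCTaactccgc
RPL22L1, chr3:170870181-170870210, minus strand: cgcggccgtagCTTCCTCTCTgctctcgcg
RPL26, chr17:8383179-8383208, minus strand: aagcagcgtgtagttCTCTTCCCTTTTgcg
RPL26L1, first start, chr5:172958714-172958743, plus strand: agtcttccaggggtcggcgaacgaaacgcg
RPL26L1, second start, chr5:172958865-172958894, plus strand: ggcggggcggcggccacaaacccgcaggca

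RPL26L1, a paralog of RPL26, has no such tract at either start shown, while RPL26 has one. RPL11 has a long tract at its second start and a match of the minimum length, 5 bases, at its first. Of 64 members that matched a RefSeq window, 57 had the tract and 7 did not (RPL26L1, RPL7L1, RPL6, RPS29, RPL27, RPL17 and RPS4X). Counted by windows, since a gene can have more than 1 start, the tract was found in 63 of 80 (78.8%), against 27.1% of all 35116 windows. In the whole 300 bases around a start, on either strand, CTTCCG (the core of ETS factor sites) was found in 58.8% of the members' windows and 19.5% of all, AAGATGG (part of YY1 sites) in 10% and 5.84%, and TATAAA in 7.5% and 11.5%. A match describes these letters and is not a bound site. The median log2 fold change of members with and without the tract was -0.086 and -0.10 in alpha vs GFP, given as a description over 57 and 7 genes.

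Ribosomal protein mRNAs took a smaller share of the libraries that overexpressed PRDM1. In wild type the 79 genes together held 8.76% and 8.68% of gene counts, in KO2 8.61% and 8.80%, in KO5 8.80% and 8.63%, and in the GFP control 8.46% and 8.69%. The alpha libraries stood at 8.02% and 8.08% and the beta libraries at 8.07% and 8.15%. All 4 of these lay below all 8 others, and relative to the GFP mean the share was -6.13% with alpha and -5.46% with beta. Both subunits took part: the 40S genes held 2.81% ± 0.00034 (SD, n = 2) with alpha, 2.82% ± 0.013 with beta and 3.00% ± 0.041 with GFP, and the 60S genes 5.24% ± 0.042, 5.28% ± 0.046 and 5.57% ± 0.12. An exact 2-sided permutation test of 2 libraries against 2 cannot go below p = 0.333, so the shares carry no test. The knockouts differed from WT by less than the spread between libraries, with means of 8.70% ± 0.13 in KO2 and 8.72% ± 0.12 in KO5 against 8.72% ± 0.062. In bulk RNA, fewer cells of a kind and less RNA per cell cannot be told apart.

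**Figure D1:**
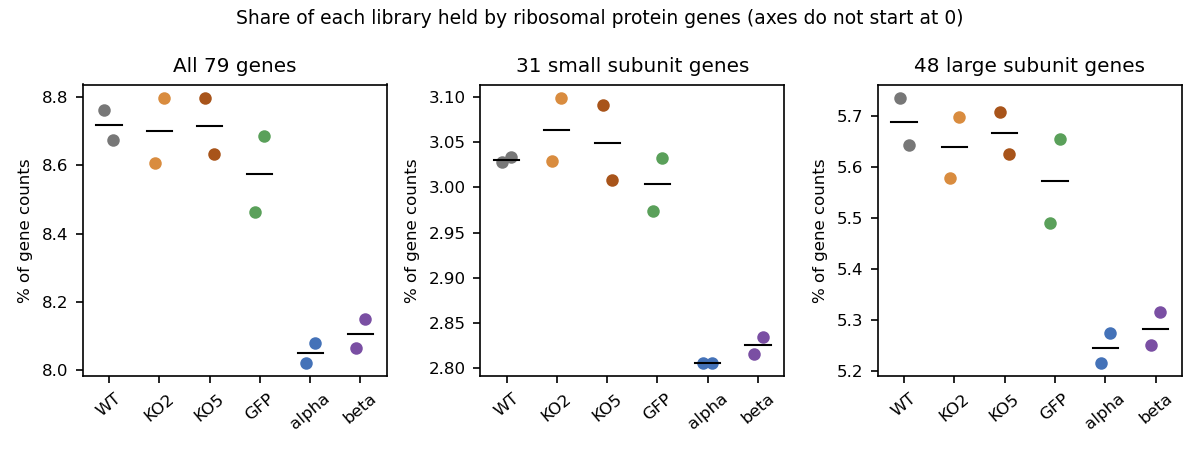
Share of gene counts (%) held by all 79 ribosomal protein genes, the 31 of the small subunit and the 48 of the large subunit, in each of the 2 libraries of a group; the bar is the group's mean and the axes do not start at 0. The alpha and beta libraries, between 8.02% and 8.15% in the left panel, lie below all others, which span 8.46% to 8.80%.

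Sequencing depth and the summed leukocyte list also set apart the same 4 libraries. They were the shallowest, with 19058967 to 24170122 gene counts against 25414550 to 55961821 in the others. With all libraries thinned at random to equal depth, 45 members passed as lower with alpha than with GFP (of all genes 15.3%). With beta 40 did (of all genes 17.2%). Thinning evens the counting noise only, and the part of other differences that go with depth was not tested. The summed leukocyte list (5 genes) was at 24.7 to 30.1 CPM (counts scaled to library size) in the alpha and beta libraries. It was at 11.4 to 19.98 in the others, nearly all of it CD68. CD3E and CSF1R were at 0 in every library and PTPRC had at most 1 read. The fibroblast list (7 genes, DCN at 0) summed to 12.3 to 16.1 CPM against 8.52 to 13.2, and the endothelial list (3 genes, PECAM1 and CDH5 at 0) did not exceed 0.127 CPM. The erythroid list (3 genes, HBB at 0) summed to 0.907 to 1.53 CPM against 0.493 to 2.56, and the epithelial list (8 genes) to 815 to 928 CPM against 892 to 1203. The fibroblast, endothelial, erythroid and epithelial sums overlapped between these 4 libraries and the others. The epithelial sums were 823 and 815 CPM with alpha, 928 and 927 with beta and 892 and 924 with GFP. The part of CD68, of the fibroblast genes and of the epithelial genes in the result was not tested.

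Gene by gene, alpha against GFP compares overexpression of PRDM1 alpha with that of GFP. Any other difference between these libraries enters it as well. Of the 79 genes 45 fell and 4 rose at an adjusted p under 0.05 (edgeR's quasi-likelihood test, Benjamini-Hochberg adjustment over all genes), where 37.5% of all genes tested passed (21.2% higher and 16.3% lower). The median log2 fold change of members was -0.093, a change of -6.21%, beside 0.010 for all genes. Among the 40S genes 16 of 31 fell and 1 rose, and among the 60S genes 29 of 48 fell and 3 rose. The changes were small: no called member reached 2-fold, and a test for changes beyond 1.2-fold passed 0 members.

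The beta form gave 42 falls and 4 rises, where 40.9% of all genes tested passed (22.9% higher and 18% lower). The median of members was -0.079, beside 0.012 for all genes, and 16 of the 40S and 26 of the 60S genes fell. Both forms were set against the same 2 GFP libraries, so their values stand side by side and no overlap is drawn from them. Without the second beta library the calls were 28 falls and 2 rises, where 28.8% of all genes passed and 12% were lower.

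**Figure D2:**
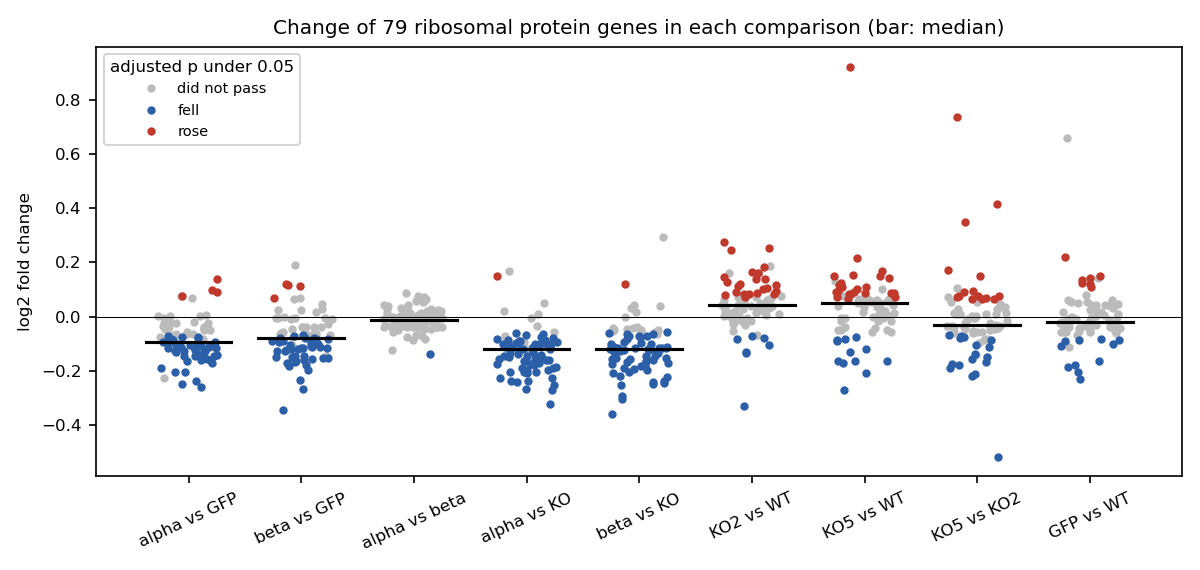
Log2 fold change of each of the 79 genes in each of the 9 comparisons, from the fit over 12 libraries, with genes that fell in blue, genes that rose in red, genes that did not pass in grey and the median as a bar; points are spread sideways for legibility. The medians are -0.093 and -0.079 for alpha and beta against GFP and -0.12 for both forms against the knockouts.

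Several of the largest falls were of 60S proteins. RPL24, which makes a bridge between the subunits, stood at 679 and 687 CPM in the GFP libraries, 596 and 589.5 in the alpha libraries and 574 and 561 in the beta libraries. All 4 overexpression values lay below the other 8 libraries, the lowest of which was 652. The log2 fold change (± SE) was -0.20 ± 0.033 (adjusted p = 9.49e-08) with alpha and -0.27 ± 0.033 (adjusted p = 9.65e-11) with beta. RPL39, a very small protein of the tunnel through which the new chain leaves, stood at 789 and 786 CPM in the GFP libraries, 666 and 669 in those of alpha and 671 and 668 in those of beta. These were again below all other libraries, and the changes were -0.24 ± 0.033 (adjusted p = 2.3e-09) and -0.23 ± 0.033 (adjusted p = 3.41e-09).

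Both proteins of the 5S particle fell. RPL11 was at 995 and 1083 CPM under GFP, 920.1 and 944 under alpha and 917 and 914 under beta, changes of -0.16 ± 0.032 (adjusted p = 4.38e-05) and -0.18 ± 0.032 (adjusted p = 2.83e-06). RPL5 was at 1703 and 1753 CPM under GFP, 1551 and 1575 under alpha and 1606 and 1585 under beta, changes of -0.14 ± 0.032 (adjusted p = 3.79e-05) and -0.12 ± 0.032 (adjusted p = 0.000733). For both genes the 4 overexpression libraries lay below the other 8.

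Of the 40S genes, RPS14, from the platform of the subunit, was at 757 and 725 CPM for GFP, 669.6 and 656 for alpha and 639 and 653 for beta, a change of -0.20 ± 0.033 (adjusted p = 3.03e-07) with beta. No overexpression library reached any other. RPL24, RPL39, RPL11 and RPS14 were picked among called members without overlap with the GFP libraries. Their separation from GFP therefore adds no support. RPS3, at the channel where mRNA enters, changed by -0.15 ± 0.032 (adjusted p = 2.6e-05) with alpha and -0.13 ± 0.032 (adjusted p = 0.000166) with beta. RPS19, the gene most often mutated in Diamond-Blackfan anaemia, changed by -0.12 ± 0.032 (adjusted p = 0.000635) and -0.15 ± 0.032 (adjusted p = 4.71e-05).

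Separation of the 4 overexpression libraries from the other 8 was common among the 79 genes. In 36 of them (45.6%) all 4 alpha and beta libraries lay below all 8 others, which held for 10.3% of the genes tested. RPL28 was the only member with all 4 above (1.27% of members, against 12.9% of genes tested). Its margin was narrow, at 437.30 CPM in the first beta library and 437.21 in the first WT library. Over the 6 groups, the highest group mean was a median of 1.14 times the lowest among members and 1.28 times among all genes tested, and 14 members passed 1.2 times. Among the widest were RPL26L1 at 1.54, RPL13A at 1.33 and RPL36A at 1.32.

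**Figure D3:**
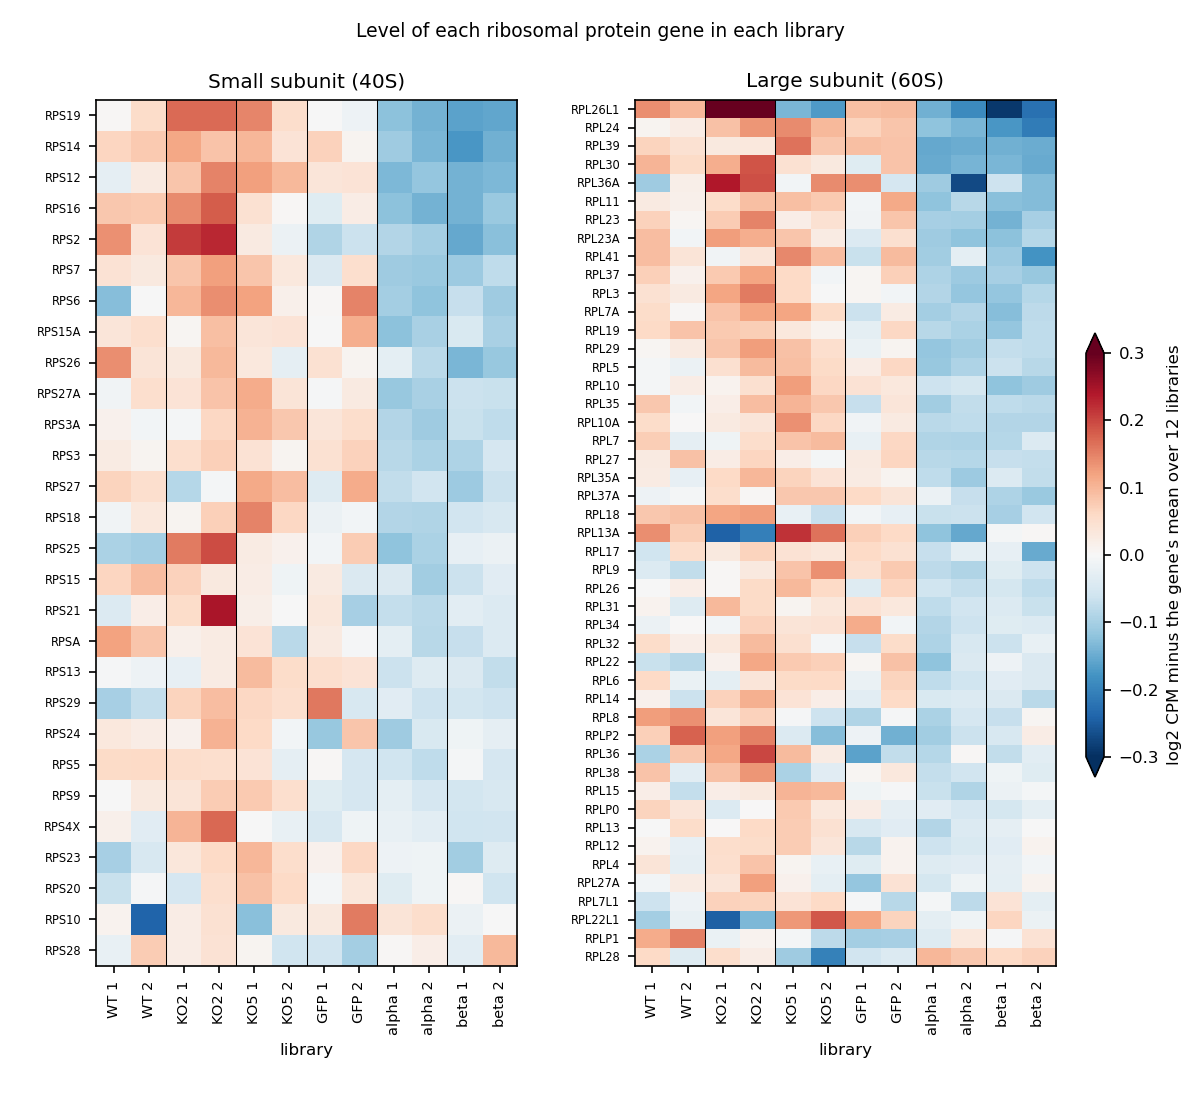
Log2 CPM of each ribosomal protein gene in each of the 12 libraries, minus the gene's mean over them (genes not reported here are left out), with genes ordered within each subunit by the mean of the alpha and beta libraries minus that of the others; colours end at ±0.3. The alpha and beta columns are mostly blue. RPL28 is the only row in which all 4 alpha and beta cells lie above the other 8, narrowly so against WT.

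The rises were few and small. RPL28, a 60S protein, was at 404 and 408 CPM in the GFP libraries. It was at 450.1 and 444 in those of alpha and 437.3 and 440.3 in those of beta. WT was at 437.2 and 409 CPM, KO2 at 436 and 426 and KO5 at 390 and 365. RPL28 rose against GFP by 0.14 ± 0.034 (adjusted p = 0.000441) with alpha and 0.11 ± 0.034 (adjusted p = 0.00395) with beta. It too was picked without overlap with the GFP libraries. RPLP1, of the stalk, was at 998 and 999 CPM for GFP, 1043 and 1094 for alpha and 1068 and 1103 for beta, rises of 0.097 ± 0.032 (adjusted p = 0.00836) and 0.12 ± 0.032 (adjusted p = 0.000976). WT was higher than all of these, at 1156 and 1188 CPM, and the alpha rise had an adjusted p of 0.0514 without the second GFP library and 0.211 without the second alpha library. RPS28, a 40S protein, rose as well (0.091 ± 0.037, adjusted p = 0.0485 with alpha and 0.12 ± 0.037, adjusted p = 0.0109 with beta), but its calls were lost under several other settings. RPLP0, the base of the stalk, did not pass with alpha or beta (-0.040 ± 0.031, adjusted p = 0.282 and -0.038 ± 0.031, adjusted p = 0.294), and neither did RPSA, a 40S protein also known as the laminin receptor (-0.068 ± 0.032, adjusted p = 0.0762 and -0.066 ± 0.032, adjusted p = 0.0821). RPSA did pass as lower with both forms under 6 other settings (DESeq2 size factors, total counts, TMM without the members, no filter, only the compared groups and without the second GFP library), with adjusted p from 0.0282 to 0.0485.

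The GC content of the transcripts moved with some of these changes. Across the 79 genes the Spearman correlation of log2 fold change with transcript GC was 0.41 in alpha vs GFP and 0.36 in beta vs GFP (0.19 and 0.15 across 12118 genes with a value). It was -0.66 in GFP vs WT, for members and for all genes alike. In KO5 vs WT it was -0.43 for members and -0.51 for all genes, and in KO5 vs KO2 -0.32 and -0.41. Genes share their libraries, so these are descriptions. With each library's GC trend removed, a setting added after the data were seen, 49 members fell and 1 rose with alpha, where 37.4% of all genes passed and 17.9% were lower. With beta 44 fell and 2 rose, where 41.8% passed and 20.5% were lower. RPLP1 was the rise with alpha, and RPLP1 and RPS28 were those with beta; RPL28 was then at 0.069 (adjusted p = 0.0886) and 0.053 (adjusted p = 0.194).

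**Figure D4:**
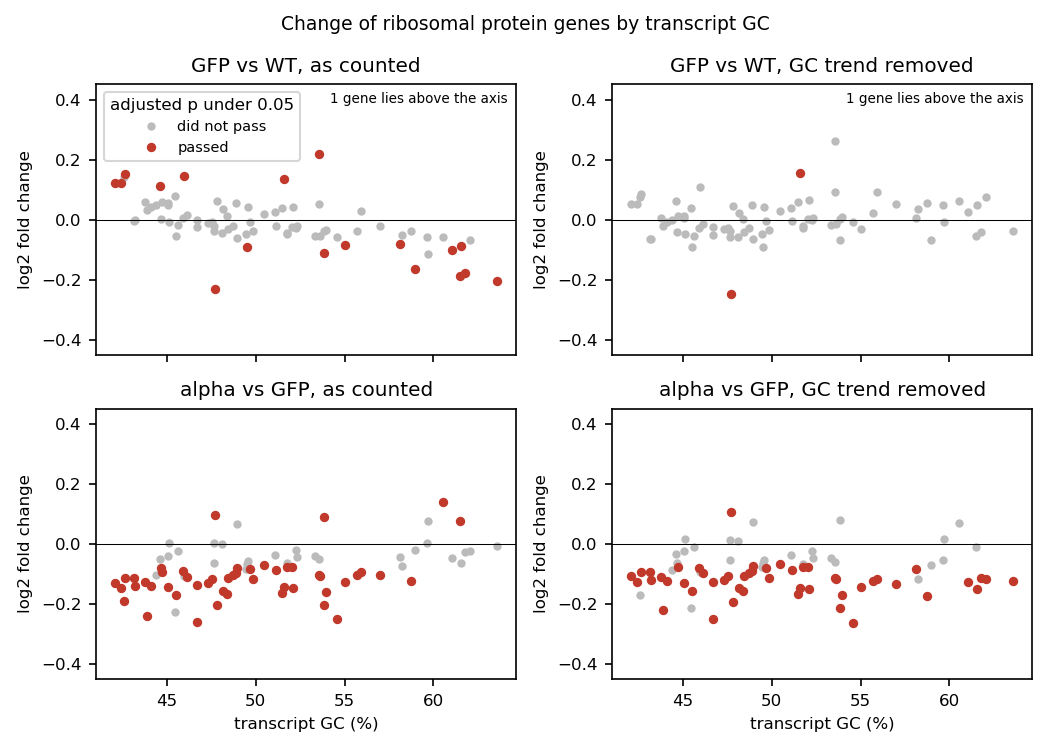
Log2 fold change against transcript GC (%) for the 79 genes in GFP vs WT (top) and alpha vs GFP (bottom), as counted (left) and with the GC trend of each library removed (right); red marks an adjusted p under 0.05, and 1 gene lies above the axis in both GFP vs WT panels. In GFP vs WT 18 genes pass as counted and 2 with the trend removed, while in alpha vs GFP 49 and 50 pass.

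GFP against WT compares overexpression without PRDM1 with wild type, and any other difference between these libraries enters it as well. Here 11 members fell and 7 rose, where 19% of all genes tested passed (8.81% higher and 10.2% lower), and the median was -0.020. The falls were led by the stalk proteins RPLP1 at -0.23 ± 0.032 (adjusted p = 5.74e-07) and RPLP2 at -0.20 ± 0.043 (adjusted p = 0.00384). With the GC trend removed RPS25 rose, RPLP1 fell and no other member passed, and 0.908% of all genes did. Without the second WT library 9 members passed, where 4.94% of all genes did.

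Alpha and beta differed in few members. RPL13A alone passed, where 6.24% of all genes tested passed (3.45% higher and 2.79% lower). It was at 629.9 and 616 CPM with alpha and 683 and 687 with beta, a difference of -0.14 ± 0.033 (adjusted p = 0.00143). RPL13A is a 60S protein also known for a role in silencing inflammatory mRNAs. Without the second alpha library the difference was -0.12 (adjusted p = 0.0637). The median of members was -0.013.

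Against the mean of both knockouts, alpha gave 68 falls and 1 rise, where 49.7% of all genes tested passed (26.6% higher and 23.1% lower). Beta gave 60 falls and 1 rise, where 52.9% of all genes tested passed (28.5% higher and 24.4% lower). The medians were -0.12 in both. RPS19 fell by 0.27 ± 0.028 (adjusted p = 1.97e-12) with alpha and by 0.29 ± 0.028 (adjusted p = 1.18e-13) with beta on the log2 scale, and RPL24 fell by 0.24 ± 0.028 (adjusted p = 1.77e-11) and by 0.31 ± 0.028 (adjusted p = 1.37e-14). RPL28 was the rise in both (0.15 ± 0.029, adjusted p = 1.13e-05 and 0.12 ± 0.029, adjusted p = 0.000212). In the authors' deposited table for alpha, 32 of the 79 were lower and 0 higher at their adjusted p under 0.05, where 16.4% of their genes passed (9.02% higher and 7.42% lower). In the authors' deposited table for beta, 33 were lower and 0 higher, where 19.5% passed (10.6% higher and 8.89% lower). RPL28 was at 0.13 and 0.11 in the authors' deposited tables, with adjusted p of 0.315 and 0.412.

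The knockouts were less even. In KO2 23 members rose and 7 fell against WT, where 30% of all genes tested passed (15.1% higher and 14.9% lower), and the median was 0.043. RPS25, a 40S protein that some viral entry sites depend on, was at 726 and 747 CPM in KO2 against 610.5 and 607 in WT, a rise of 0.27 ± 0.032 (adjusted p = 8.82e-11). RPL13A was at 579 and 594 CPM against 754 and 721, a change of -0.33 ± 0.032 (adjusted p = 3.38e-13). RPS25 and RPL13A were picked among called members whose libraries did not overlap between KO2 and WT, so that separation adds no support. RPL26L1 rose by 0.25 ± 0.047 (adjusted p = 1.77e-05) and RPS4X, an X-linked 40S protein, by 0.15 ± 0.032 (adjusted p = 6.71e-05). With libraries scaled to their totals instead of by TMM (trimmed mean of M values, which drops extreme genes before scaling), 11 rose and 8 fell, where 30.6% of all genes passed and 21.1% were lower. Without the second KO2 library 9 rose and 4 fell (of all genes 20.4% passed), and without the second WT library 15 rose and 3 fell (of all genes 19.6%).

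In KO5 23 members rose and 12 fell against the same WT libraries, where 51.2% of all genes tested passed (25.2% higher and 25.9% lower), and the median was 0.049. RPL9, a 60S protein, rose by 0.17 ± 0.032 (adjusted p = 1.5e-06). RPL26L1 had the lowest value at -0.27 ± 0.052 (adjusted p = 8.27e-06). RPLP2 and RPL8 fell as well (-0.21 ± 0.043, adjusted p = 0.000632 and -0.17 ± 0.031, adjusted p = 1.1e-05), but with the GC trend removed they stood at 0.035 and 0.035 and did not pass; the removal turned the Spearman correlation of the members' changes with GC from -0.43 to 0.44, so it went past 0 for these genes. Over all members 26 rose and 9 fell with the GC trend removed, where 41.1% of all genes passed and 20% were lower. With libraries scaled to their totals 15 rose and 17 fell, where 50.2% of all genes passed and 29.5% were lower. Without the first KO5 library 10 rose and 12 fell, where 42.9% of all genes passed.

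Set against each other, KO5 had 15 members higher and 17 lower than KO2, where 54.9% of all genes tested passed (26.9% higher and 28.1% lower). The median was -0.031, and without the second KO5 library 10 were higher and 11 lower (of all genes 43.3% passed). RPL26L1 was at 47.2 and 49.4 CPM in KO2 and 34.1 and 33.3 in KO5, a difference of -0.52 ± 0.052 (adjusted p = 1.17e-12), with WT between them at 41.3 and 40.1. RPL13A was at 797 and 767 CPM in KO5, a difference of 0.41 ± 0.032 (adjusted p = 7.44e-17). RPL22L1, whose product can take the place of RPL22 in the ribosome, was at 239.8 and 259 CPM in KO2 and 311 and 323 in KO5, a difference of 0.35 ± 0.034 (adjusted p = 4.23e-11). RPL26L1, RPL13A and RPL22L1 were picked among called members whose libraries did not overlap between the knockouts, so that separation adds no support. A test for changes beyond 1.2-fold passed 3 members, 2 higher and 1 lower in KO5. With the GC trend removed 17 members were higher and 16 lower, where 50.7% of all genes passed and 25.1% were lower.

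**Figure D5:**
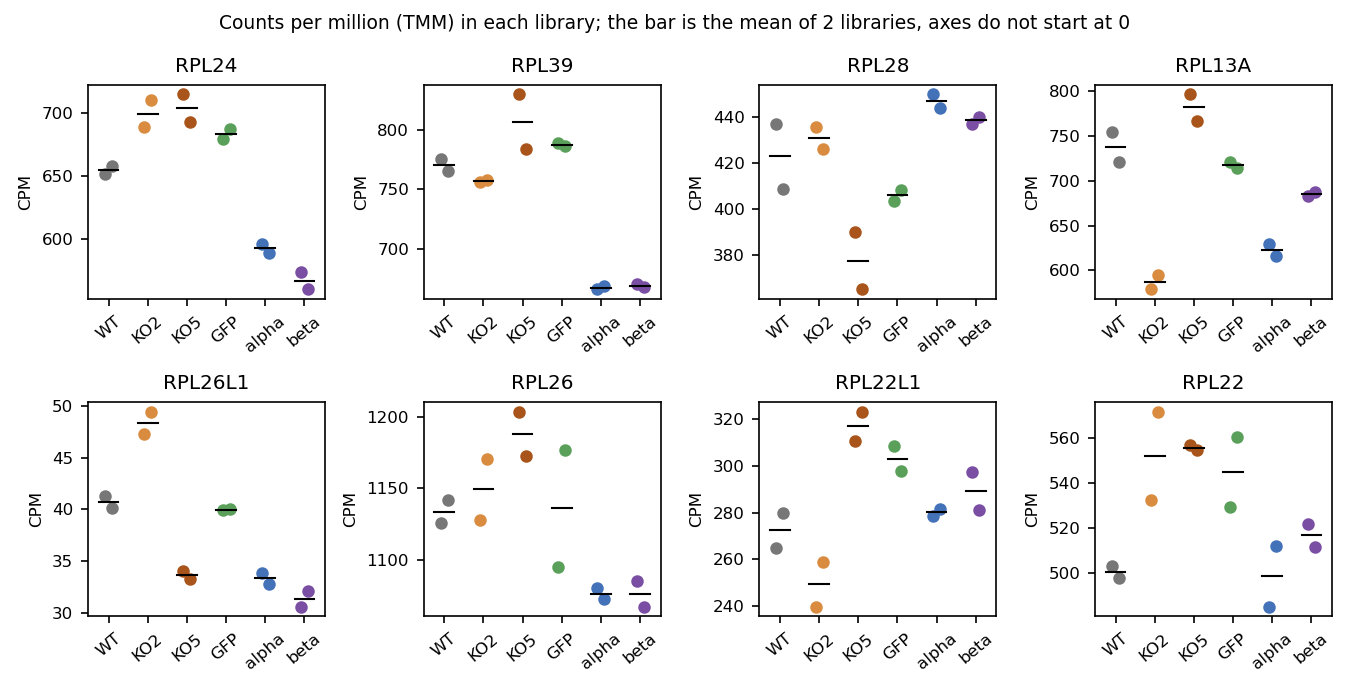
CPM (TMM scaled) in each library of 8 ribosomal protein genes, with the mean of the group's 2 libraries as a bar; axes do not start at 0. RPL24 and RPL39 are lowest with alpha and beta, RPL13A is lowest in KO2, and RPL26L1 and RPL22L1 go in opposite directions between KO2 and KO5.

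The paralogs and their counterparts differed in several comparisons. RPL26L1 fell with both forms of PRDM1, at -0.26 ± 0.059 (adjusted p = 0.000173) and -0.35 ± 0.060 (adjusted p = 1.7e-06), and RPL26 by less, at -0.079 ± 0.032 (adjusted p = 0.0348) and -0.079 ± 0.032 (adjusted p = 0.0319); the RPL26 calls were lost without the second GFP library (adjusted p = 0.433 and 0.402), without either alpha library (0.107 and 0.164) or either beta library (0.0665 and 0.207) and, with alpha, with the GC trend removed (0.0726). In KO5 vs WT RPL26 did not pass (0.068 ± 0.032, adjusted p = 0.0515). RPL22 was at 0.14 ± 0.032 (adjusted p = 0.000551) in KO2 vs WT, where RPL22L1 was at -0.13 ± 0.034 (adjusted p = 0.00288), and in KO5 vs WT both rose (0.15 ± 0.032, adjusted p = 0.000109 and 0.22 ± 0.034, adjusted p = 1.34e-06). The KO2 call of RPL22L1 was lost without the second WT or the first KO2 library. RPL22 in KO5 vs WT did not pass with the GC trend removed (0.052, adjusted p = 0.158). Without the second KO2 library its change in KO2 vs WT was 0.089. The differences between paralog and counterpart were not tested.

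RPL36A, RPS10 and RPL17 overlap readthrough genes that have rows of their own, with 0, 4 and 5 reads, so their counts are uncertain. Pseudogenes have rows as well, such as RPSAP58 with 23362 reads. How reads that match both a gene and its pseudogene were handled is not given. Counts of other members are therefore uncertain too, and the 7 reads of RPL21 do not show that it is little expressed.

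Other genes of translation were read from lists drawn up with earlier results known. Their counts stand against the shares of all genes tested: 21.2% higher and 16.3% lower with alpha, 22.9% and 18% with beta, 15.1% and 14.9% in KO2, and 25.2% and 25.9% in KO5. Among 25 tested elongation factor and other TOP mRNAs 3 rose and 12 fell with alpha, 5 rose and 6 fell with beta, 13 rose and 0 fell in KO2 and 9 rose and 4 fell in KO5. PABPC1, the poly(A) binding protein whose own mRNA has a TOP tract, was at 3521 and 3743 CPM for GFP, 2477 and 2492 for alpha and 2667 and 2662 for beta. Its changes were -0.55 ± 0.032 (adjusted p = 3.69e-21) and -0.45 ± 0.032 (adjusted p = 8.04e-18), and it rose in KO2 by 0.42 ± 0.031 (adjusted p = 1.03e-16). All 4 overexpression libraries lay below the other 8. Of 76 mitochondrial ribosomal proteins 4 rose and 22 fell with alpha, 5 rose and 24 fell with beta, 33 rose and 0 fell in KO2 and 13 rose and 29 fell in KO5.

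Of 5 tested ribosomal proteins outside the symbol rule, 0 rose and 1 fell with alpha and 0 rose and 1 fell with beta, the fall being RPS27L in both (-0.37 ± 0.050, adjusted p = 9.36e-08 and -0.30 ± 0.049, adjusted p = 3.17e-06). RPS27L, a paralog of RPS27 known as a p53 target, was at 127 and 125 CPM in KO5 against 86.6 and 76.2 in WT, a rise of 0.63 ± 0.041 (adjusted p = 3.31e-16). In KO2 vs WT FAU, GNB2L1 and RPL36AL were among the 4 that rose.

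The remaining lists are given by their counts, beside 21.2% of all genes higher and 16.3% lower with alpha, and 22.9% and 18% with beta. Of 15 ribosome quality control and recycling genes 6 rose and 0 fell with alpha and 7 rose and 0 fell with beta, including SBDS, which helps mature the 60S subunit (0.23 ± 0.038, adjusted p = 3.67e-06 and 0.24 ± 0.038, adjusted p = 1.16e-06). Of 20 mTOR and LARP1 genes 7 rose and 4 fell with alpha and 6 rose and 1 fell with beta, and LARP1 rose in KO2 by 0.30 ± 0.032 (adjusted p = 1.69e-11). Of 16 chaperones and importins 2 rose and 3 fell with alpha and 2 rose and 4 fell with beta. Of 8 factors known at ribosomal protein promoters 1 rose and 1 fell with alpha and 2 rose and 1 fell with beta. Of 8 genes of the MDM2 and p53 branch 3 rose and 0 fell with alpha and 2 rose and 2 fell with beta, and of 16 noncoding hosts of small nucleolar RNAs 2 rose and 4 fell and 2 rose and 6 fell. By log2 CPM over the 12 libraries, the genes most like the members' mean among 7745 others were ILF2, NACA, PABPC1, PSMB7 and PSMA3, with Pearson r of 0.98, 0.98, 0.98, 0.97 and 0.97, a description of libraries that fall into the study's groups.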

How the data were processed

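For each of 12 libraries the authors deposited whole-number counts by gene symbol, not normalized. TopHat, Bowtie2, Cufflinks and build hg19 are named per the submitters' processing notes; versions, the read counter and its use of strand are not given in the sources used here, and the labels name a stranded kit. Gene counts per library ran from 19058967 to 55961821, and a count of 0 allows up to 0.157 CPM (3 counts) in the shallowest, counting error only. Library totals leave out 2 entries that name no gene: unassigned reads (9.13% to 10.8%) and reads of more than 1 gene (1.66% to 1.75%). A second kind of file, deposited by the authors, is tables of alpha and beta against knockout, holding log2 fold changes, p-values, a score (the test statistic) and a mean of normalized counts; a table named for both forms was identical to that for beta and was not used.

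Counts were tested in R 4.3.3 with edgeR 4.0.16 (filterByExpr, TMM, robust glmQLFit over all 12 libraries with a mean per group, glmQLFTest, Benjamini-Hochberg adjustment over 12858 genes at 0.05) in 9 comparisons; log2 CPM used a prior count of 2. Standard errors are Wald errors with the quasi-likelihood dispersion not allowed under 1. The script was tested on simulated data. Members named were, per comparison, up to 5 rises and 5 falls of largest size without overlap between groups, plus a set list of paralogs and of stalk, 5S particle and other proteins; the text gives part of them, and a few genes are counted among the members or lists but not reported here by name. Members, lists and tests were chosen with earlier results of these data known. Transcript GC came from 1 GENCODE 29 transcript per gene (94.2% of genes tested, all members). The rule for that transcript was changed after results were seen, because some lengths looked implausible, and all 4 rules tried are reported. Replicates differed by more than sampling noise, so none was counted as a duplicate. Alternatives were DESeq2 1.42.0, total counts, TMM without the members, no filter, only the compared groups, a replicate block, each library left out, a member minimum of 10000 reads and glmTreat at 1.2-fold. GC removal and thinning were added after seeing the data.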

Additional observations from a re-analysis of the deposited data

Results flagged for a closer look

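These differences between groups passed a test of the difference itself. RPL13A was lower with alpha than with beta (log2 -0.14). KO5 was lower than KO2 for RPL26L1 (-0.52), RPLP2 (-0.22), RPS2 (-0.21) and RPL28 (-0.19), and higher for RPS27 (0.15), RPL22L1 (0.35) and RPL13A (0.41). With the GC trend removed RPLP2 and RPL28 were at -0.016 and -0.040 and no longer passed; the removal turned the Spearman correlation of the members' changes with GC from -0.32 to 0.39. Groups of 2 libraries are too small to test for a library far from the rest.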

How the results depend on the processing

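Rescaling with DESeq2 size factors, the DESeq2 test, TMM without the members, no low-count filter, thinning and a member minimum of 10000 reads left every count of called members within 1.5 times and every median's direction. That minimum kept 78 of the 79 members, so it could change little. A test beyond 1.2-fold called 0 members in 8 comparisons and 3 in KO5 vs KO2. With total counts, KO2 vs WT had 19 calls, and the medians were 0.0059 in KO2 vs WT, 0.021 in KO5 vs WT and -0.098 in alpha vs KO and beta vs KO. With only the compared groups alpha vs beta had 2 calls.

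Transcript rules A, B and C are the earlier choices of 1 transcript per gene. With the GC trend removed alpha vs beta had 2 calls under all 4 transcript rules, and GFP vs WT had 2 calls, or 3 under rule A. The median of GFP vs WT was then -0.00042, and under rules A, B and C 0.0036, 0.0014 and 0.0030. The median of KO5 vs KO2 was -0.010, and under rules A, B and C -0.0058, -0.0064 and -0.0057. Among the members named by rule, for which alone single genes were followed (150 values), those that changed sign were RPLP2, RPL8, RPL26 and RPL28 in KO5 vs WT (0.035, 0.035, -0.0020 and 0.0093), RPS19 in KO5 vs KO2 (0.050), RPL28 in GFP vs WT (0.061) and RPL22L1 in alpha vs KO (0.00084). With total counts RPL26 in KO2 vs WT was at -0.017 and RPL22L1 in alpha vs KO at 0.017.

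Leaving out each library in turn gave these lowest and highest calls: alpha vs GFP 33 to 48, beta vs GFP 30 to 49, alpha vs beta 0 to 1, KO2 vs WT 13 to 26, KO5 vs WT 22 to 32, KO5 vs KO2 21 to 25, GFP vs WT 9 to 18, alpha vs KO 55 to 72 and beta vs KO 49 to 67. The medians ran from -0.10 to -0.084, -0.099 to -0.078, -0.013 to -0.0070, 0.034 to 0.063, 0.027 to 0.048, -0.044 to -0.0033, -0.033 to 0.0060, -0.15 to -0.11 and -0.15 to -0.11 in that order. Among the same named members, those that changed sign were RPL26 in KO2 vs WT (-0.0068 without the second KO2 library, range to 0.046), RPL22L1 in alpha vs KO (0.022 without the second KO2 and 0.0032 without the first alpha library, lowest -0.044) and in beta vs KO (-0.00041 without the first beta library, range to 0.081), and RPLP1 in alpha vs KO (-0.0096 without the second KO5 and -0.014 without the second alpha library, range to 0.054). The causes were not tested.

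Replicate numbers showed no pairing common to all groups: over 15 pairs of groups the correlation of same-numbered deviations was -0.23 to 0.26 (9616 genes), above 0.1 in 2. A batch shared by some of the groups was not tested. A fit with the replicate block called 47 members in alpha vs GFP and 44 in beta vs GFP. With 2 libraries a group, small changes rest on spread shared over all groups.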
